A study of Mus musculus with 6 samples.

Results

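The mitochondrial genome transcripts are the 37 genes whose mouse symbol starts with mt-, out of 53801 mouse genes listed for each library. They were found by matching the Ensembl identifiers of the deposited values to GENCODE M21, and they comprise 13 mRNAs, 2 rRNAs and 22 tRNAs. RNA was sequenced from clonal lines of MIN6, which derive from an insulinoma of the mouse and stand in for β cells in culture. All lines were made from cells that carry Cas9, a nuclease guided by a gRNA that was delivered here by a lentivirus with puromycin selection. In 3 control clones the gRNA was directed to *intron 2* of *Snd1*, and in 3 *Snd1* KO clones to *exon 2*. Each line is 1 clone with 1 library, so p-values measure the spread between clones.

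Mitochondria keep a small circular genome, which is transcribed from both strands into long RNAs that span many genes. tRNAs sit between most of the mRNAs and rRNAs, and their excision releases the neighbouring transcripts. The mRNAs encode core subunits of complexes I, III, IV and V of oxidative phosphorylation, which joins glucose metabolism to insulin release in β cells, while every other subunit and all factors that copy, transcribe and process this genome come from nuclear genes. The genes lie on the plus strand of chromosome M in GRCm38 for 28 members and on the minus strand for 9, namely *mt-Nd6* and 8 tRNAs.

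Values are TPM, reads on a gene divided by its length and scaled to a sum of 1000000 per library, and the reads behind them were recovered as whole numbers. The libraries held between 25803774 (Control 3) and 32991397 (Control 1) recovered reads. *Snd1* had 113, 119 and 112 TPM in the control clones and 14.7, 57.1 and 19.9 TPM in the *Snd1* KO clones. The 8 β cell markers were present at 32.8 TPM or more in every clone and summed to between 43870 and 77604 TPM in control and between 48222 and 82436 TPM in *Snd1* KO clones. Of markers of other cells, *Gcg* ranged from 55.2 to 1100 TPM with its highest value in *Snd1* KO 1, the other 10 summed to between 0.258 and 3.67 TPM, and the acinar markers *Prss1* and *Cpa1* were at 0. In RNA of whole cultures, fewer cells of a type and less RNA per cell cannot be told apart, and neither can mitochondrial genomes per cell and transcripts per genome.

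A stretch of the mitochondrial genome is repeated on chromosome 1, and the members within it are described first. In GENCODE M21, 7 pseudogene models on the minus strand of chr1:24611535-24616197 matched chrM:6390-11042 in the same order, with 2 mismatches over 4140 aligned bases. Where the match ends within *mt-Nd4* (chrM:11003-11082) and where it begins within *mt-Co1* (chrM:6350-6429), the gene is printed below with the aligned bases in capitals, above the same bases of the chromosome 1 model (chr1:24611535-24611574 and chr1:24616149-24616188, minus strand), since they mark the limits of what was matched.
mt-Nd4: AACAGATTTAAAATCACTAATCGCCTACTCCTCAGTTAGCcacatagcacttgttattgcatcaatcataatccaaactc
Gm28439: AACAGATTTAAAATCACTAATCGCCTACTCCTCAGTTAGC
mt-Co1: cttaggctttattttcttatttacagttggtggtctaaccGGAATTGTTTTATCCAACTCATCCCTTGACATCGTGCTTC
Gm29216: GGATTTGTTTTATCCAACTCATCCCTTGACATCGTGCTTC

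Beyond A1066T between *mt-Co1* and *Gm29216*, which lies in the bases above, the other mismatch was T3C between *mt-Nd3* and *Gm28438*, with positions counted from 1 at the first base of the mitochondrial gene. It is the capital in the first bases of *mt-Nd3* (chrM:9459-9491) and of the model (chr1:24613087-24613119, minus strand), and is shown as the other base of 4140 that differs.
mt-Nd3: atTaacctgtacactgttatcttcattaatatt
Gm28438: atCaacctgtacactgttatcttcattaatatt

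The mRNAs inside that stretch were almost without reads. The 6 mRNAs that lie inside it, *mt-Co2*, *mt-Atp8*, *mt-Atp6*, *mt-Co3*, *mt-Nd3* and *mt-Nd4l*, had between 10 and 177 reads in any clone, whereas the 5 mRNAs outside it had between 7253 and 201832. *mt-Co1* and *mt-Nd4*, which lie partly inside, had between 40778 and 345688. Per base of the gene, the mean over the 6 clones ran from 0.0887 reads (*mt-Nd4l*) to 0.332 reads (*mt-Nd3*) inside and from 18.0 reads (*mt-Nd6*) to 134 reads (*mt-Cytb*) outside.

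Of the windows of 100 bases, the length of the reads, between 97.6% and 99.9% of those in *mt-Co2*, *mt-Atp6*, *mt-Co3*, *mt-Nd3* and *mt-Nd4l* were found unchanged in a nuclear gene model. The figure was 30.8% for *mt-Co1*, 60.8% for *mt-Nd4* and 3.19% for *mt-Nd2*, and 0% for *mt-Nd1*, *mt-Nd5*, *mt-Nd6*, *mt-Cytb* and both rRNAs. *mt-Atp8* had 0% as well although it was among the lowest, because no model of the copy covers 100 of its bases, and the bases between the models were not compared here. The 7 models themselves held 7 to 244 reads each per clone. How reads with more than 1 matching place were counted is not given in the sources used here, and its part in these low values was not tested. The 6 mRNAs are given below as counted.

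**Figure D1:**
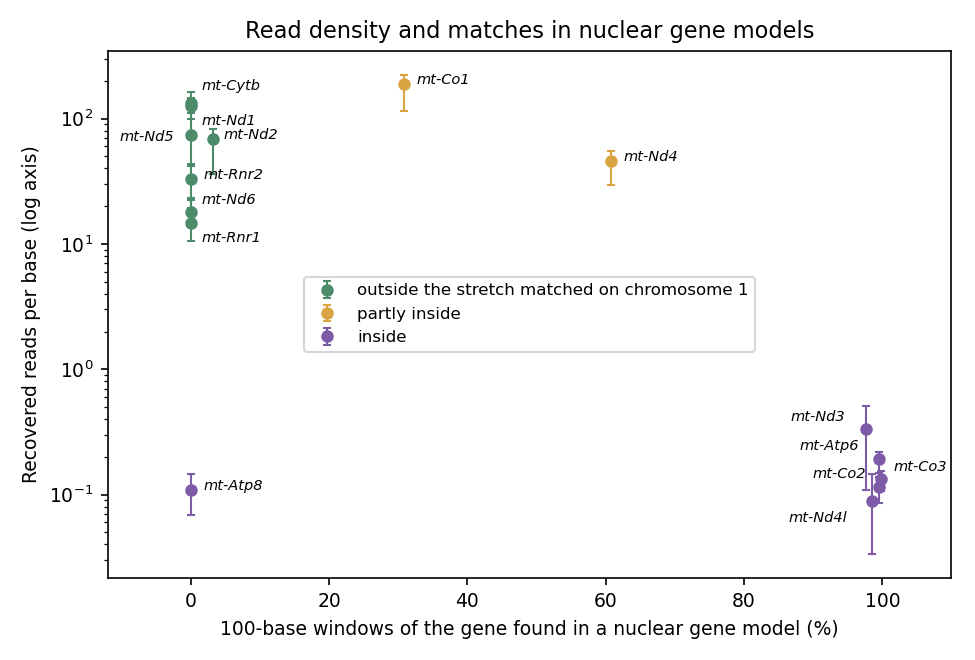
Mean recovered reads per base over the 6 clones (log axis, whiskers from the lowest to the highest clone) against the percentage of 100-base windows of each gene that occur unchanged in a nuclear gene model, for the 13 mRNAs and 2 rRNAs. The genes inside the stretch matched on chromosome 1 have at most 0.332 reads per base on average, and those outside or partly inside have at least 14.7 (*mt-Rnr1*).

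*mt-Atp8* and *mt-Atp6*, which encode both mitochondrial subunits of the ATP synthase, overlap by 43 bases on the same strand (chrM:7927-7969). These are the capitals below, in the end of the first gene (chrM:7907-7969) and the start of the second (chrM:7927-7989), and a read confined to them cannot be assigned to either.
mt-Atp8: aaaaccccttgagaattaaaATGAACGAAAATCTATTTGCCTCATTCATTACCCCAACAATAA
mt-Atp6: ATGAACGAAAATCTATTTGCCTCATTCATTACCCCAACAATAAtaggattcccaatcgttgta

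*mt-Nd4l* and *mt-Nd4* share 7 bases on the same strand, and *mt-Nd5* and *mt-Nd6* share 14 bases on opposite strands. Strand was not stated for the counting, so within those 14 bases the reads of *mt-Nd5* and *mt-Nd6* cannot be told apart. For the same reason, reads from RNA of the other strand cannot be set apart over the whole length of a gene. This holds for *mt-Nd6* and the tRNA genes of the minus strand, whose values below cannot be assigned to that strand.

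Among the mRNAs outside or partly outside the matched stretch, *mt-Co1*, the catalytic subunit of cytochrome c oxidase, had the highest level in 6 of 6 clones, with a mean over all clones of 35655 TPM. *mt-Cytb* of complex III followed with 25464 TPM and *mt-Nd1* of complex I with 23690 TPM, and their order was not fixed, since *mt-Cytb* was above *mt-Nd1* in 4 of 6 clones. *mt-Nd5* (14156 TPM) and *mt-Nd2* (12910 TPM) were as close, with *mt-Nd5* above in 5 of 6 clones. *mt-Nd4* came next with 8658 TPM, below *mt-Nd2* in 6 of 6 clones. The rRNA of the large ribosomal subunit, *mt-Rnr2*, had 6202 TPM and stood above *mt-Nd6*, the only mRNA of the minus strand, in 6 of 6 clones. *mt-Nd6* (3432 TPM) and *mt-Rnr1* (2819 TPM) again lay close, with *mt-Nd6* above in 5 of 6 clones. How the cDNA was primed is not given in the sources used here. Levels of mRNAs, rRNAs and tRNAs in these libraries are therefore no measure of their relative amounts in the cells, and ratios between these classes compare clones only. These levels are per base of the gene, and *mt-Co1* and *mt-Nd4* carry the matched bases in their length. Per base outside the match, the mean was 275 reads for *mt-Co1* and 125 reads for *mt-Nd4*, against 125 reads for *mt-Nd1*. It was 74.6 reads for *mt-Nd5* and 68.2 reads for *mt-Nd2*. On this measure *mt-Nd4* stood above *mt-Nd5* and *mt-Nd2* in every clone, the reverse of their order in TPM.

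The comparison of *Snd1* KO with control clones asked whether loss of SND1, studied here as a partner of the transcription factor PDX1, went with a change in gene expression. None of the 34 mitochondrial genes that averaged 0.5 TPM or more passed an adjusted p-value under 0.05 with a change of at least 2-fold (limma on log2(TPM + 1)), and of the 17823 genes tested 1, or 0.00561%, did. At an unadjusted p under 0.05, 2 of the 34 were found, both higher in *Snd1* KO, against 5.63% of all genes higher, 2.33% lower and 7.96% in either direction. With clone quality weights, which called 5.02% of all genes, and with voom on the recovered reads, which called 0%, the number of mitochondrial genes called was 0 as well. The other 3 members, *mt-Ts1*, *mt-Td* and *mt-Tk*, had 0 reads in every clone.

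The fold change of all 13 mRNAs and both rRNAs was above 0, with a median log2 fold change of 0.41 and a range from 0.06 to 0.90, also after each of the 4 other scalings of the libraries, though not for *mt-Co1*, *mt-Co3* and *mt-Atp6* with clone quality weights or for *mt-Co1*, *mt-Co3* and *mt-Rnr2* without Control 3. Both ends of that range, *mt-Co3* and *mt-Nd3*, are among the 6 mRNAs inside the matched stretch. The genes outside or partly inside it ran from 0.15 (*mt-Co1*) to 0.70 (*mt-Rnr1*). Over all genes tested the median was 0.04, and 57.3% of them were above 0. In 5 of these 15 genes (33.3%) every *Snd1* KO clone was above every control clone, against 9.69% of all genes, and in 0 was every *Snd1* KO clone below. Over all 34 members tested, tRNAs included, the same 5 made up 14.7% without overlap in either direction, close to the 13.7% of all genes, and 1 of the 5, *mt-Co2*, lies in the matched stretch. The 15 genes come from the same long transcripts and the same library totals and are not 15 independent measurements. Control 3 had the lowest value of the 6 clones in 12 of the 15 genes, and without it the median was 0.25.

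**Figure D2:**
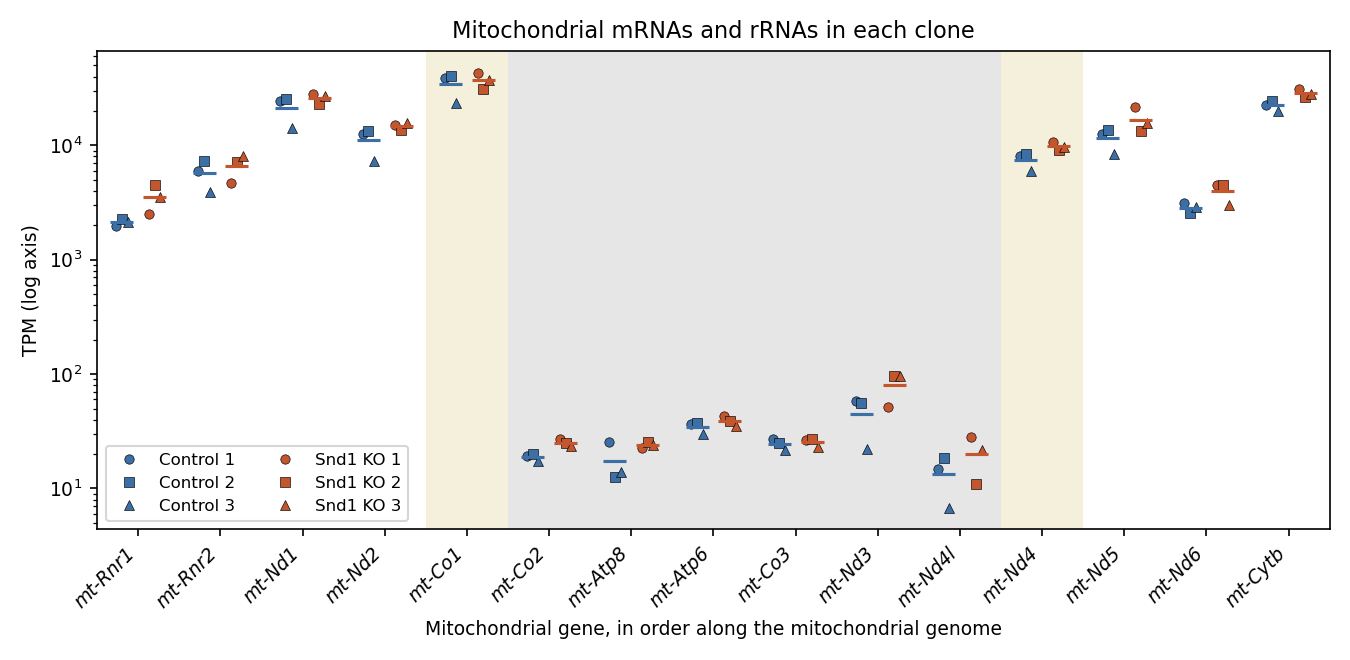
TPM (log axis) of the 13 mitochondrial mRNAs and 2 rRNAs in genome order, with 1 point per clone and a line at each group mean (n = 3). Grey columns are the 6 genes inside the stretch matched on chromosome 1, which lie under 100 TPM, and pale yellow columns are *mt-Co1* and *mt-Nd4*, which lie partly inside; triangles of Control 3 are the lowest point in 12 of the 15 genes.

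Of the rRNAs, *mt-Rnr1*, the RNA of the small ribosomal subunit, had 1963, 2271 and 2117 TPM in Control 1, 2 and 3, against 2533, 4469 and 3560 TPM in *Snd1* KO 1, 2 and 3. Every *Snd1* KO clone was above every control clone, with *Snd1* KO 1 closest to them. Control averaged 2117 ± 154 TPM and *Snd1* KO 3520.4 ± 969 TPM (SD, n = 3 each), which gave a log2 fold change of 0.70 (SE 0.24, unadjusted p = 0.0233, adjusted p = 0.585, limma). *mt-Rnr2* had 6022, 7278 and 3917 TPM in control and 4671, 7206 and 8117 TPM in *Snd1* KO clones, and the groups overlapped (log2 fold change 0.22, SE 0.33, adjusted p = 0.878, limma). Without Control 3 the value for *mt-Rnr2* was −0.03. The ratio of *mt-Rnr1* to *mt-Rnr2*, which share a primary transcript, was 0.326, 0.312 and 0.541 in control and 0.542, 0.620 and 0.439 in *Snd1* KO clones, so Control 3 lay with the *Snd1* KO clones in this ratio. The ratio of summed rRNA to summed mRNA was 0.0655, 0.0743 and 0.0733 in control and 0.0466, 0.0963 and 0.0858 in *Snd1* KO clones. Both the lowest and the highest ratio were in *Snd1* KO clones, and no difference between the groups was larger than the spread within them.

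Complex I takes 7 of the mRNAs, which encode subunits of its membrane arm. *mt-Nd1* had 24245, 25526 and 14275 TPM in control and 28095, 23066 and 26935 TPM in *Snd1* KO clones. Its groups overlapped, and the log2 fold change of 0.33 (SE 0.36, adjusted p = 0.822, limma) rested on Control 3, since it was 0.06 without that clone. *mt-Nd2* had 12469, 13308 and 7342 TPM in control and 15172, 13604 and 15562 TPM in *Snd1* KO clones. Here every *Snd1* KO clone was above every control clone, by a narrow margin between *Snd1* KO 2 and Control 2 (log2 fold change 0.47, SE 0.32, adjusted p = 0.718, limma), and without Control 3 the value was 0.20.

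*mt-Nd4* had 8071, 8415 and 5979 TPM in control and 10672, 9098 and 9714 TPM in *Snd1* KO clones. These groups did not overlap either (log2 fold change 0.41, SE 0.24, adjusted p = 0.685, limma), and the value without Control 3 was 0.25. *mt-Nd5* had 12490, 13543 and 8441 TPM in control and 21443, 13227 and 15789 TPM in *Snd1* KO clones. *Snd1* KO 1 was far above the rest, and *Snd1* KO 2 was below Control 2 (log2 fold change 0.55, SE 0.33, adjusted p = 0.686, limma). The value was 0.34 without Control 3 and 0.36 without *Snd1* KO 1. *mt-Nd6* had 3138, 2569 and 2877 TPM in control and 4486, 4487 and 3035 TPM in *Snd1* KO clones. *Snd1* KO 1 and *Snd1* KO 2 were above all control clones, while *Snd1* KO 3 was within their range (log2 fold change 0.47, SE 0.22, adjusted p = 0.607, limma). *mt-Nd6* and *mt-Rnr1* were the genes of the 15 in which Control 3 did not lie below the mean of Control 1 and Control 2 (1.01 and 1.0 times that mean), against 0.39 times (*mt-Nd3*) to 0.89 times (*mt-Co2*) for the other 13 mRNAs and rRNAs.

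The remaining complex I members lie in the matched stretch. *mt-Nd3* was listed at 57.7, 55.5 and 22.1 TPM in control and 51.8, 95.9 and 95.4 TPM in *Snd1* KO clones. The log2 fold change of 0.90 (SE 0.42, adjusted p = 0.607, limma) was the highest of the 15 genes, but *Snd1* KO 1 was below Control 1 and Control 2, and without Control 3 the value was 0.46. *mt-Nd4l* was listed at 14.7, 18.6 and 6.80 TPM in control and 28.1, 10.8 and 21.5 TPM in *Snd1* KO clones, with overlapping groups. Its log2 fold change was 0.56, and ranged from 0.17 without Control 3 to 0.93 without *Snd1* KO 2.

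*mt-Cytb*, the cytochrome b of complex III, had 22747, 24324 and 19979 TPM in control and 31309, 26554 and 27871 TPM in *Snd1* KO clones. Every *Snd1* KO clone was above every control clone. Control averaged 22350 ± 2199 TPM and *Snd1* KO 28578 ± 2455 TPM (SD, n = 3 each), which gave a log2 fold change of 0.36 (SE 0.31, adjusted p = 0.764, limma).

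*mt-Co1* of complex IV had 38618, 40684 and 23289 TPM in control and 43360, 30970 and 37006 TPM in *Snd1* KO clones. The groups overlapped, with 2 of the control clones above 2 of the *Snd1* KO clones. The log2 fold change was 0.15 (SE 0.41, adjusted p = 0.944, limma), and turned to −0.11 without Control 3. The other complex IV members lie in the matched stretch and were listed at low values. *mt-Co2* was listed at 19.1, 19.9 and 17.4 TPM in control and 26.9, 25.0 and 23.6 TPM in *Snd1* KO clones, from 59 to 95 reads. Its groups did not overlap, and it had the lowest unadjusted p of all members, 0.0113 (log2 fold change 0.40, SE 0.12, adjusted p = 0.568, limma). *mt-Co3* was listed at 27.2, 24.9 and 21.6 TPM in control and 26.4, 27.2 and 23.2 TPM in *Snd1* KO clones. Its log2 fold change was 0.06 (SE 0.13, adjusted p = 0.919, limma), and −0.02 without Control 3.

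For complex V, *mt-Atp6* was listed at 36.4, 37.2 and 29.97 TPM in control and 42.7, 39 and 35 TPM in *Snd1* KO clones, with overlapping groups (log2 fold change 0.17, and 0.07 without Control 3). *mt-Atp8* was listed at 25.7, 12.6 and 13.9 TPM in control and 22.8, 25.6 and 23.9 TPM in *Snd1* KO clones. The value of Control 1 was above every *Snd1* KO clone, and the log2 fold change was 0.52 (SE 0.26, adjusted p = 0.618, limma), with 0.82 without Control 1 and 0.33 without Control 2.

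Together the 37 genes took 13.6%, 14.6% and 9.17% of the summed TPM in Control 1, 2 and 3, against 16.4%, 14.2% and 15.7% in *Snd1* KO 1, 2 and 3. Control averaged 12.4% ± 2.87 and *Snd1* KO 15.4% ± 1.10 (SD, n = 3 each), a log2 difference of 0.34, and the groups overlapped because *Snd1* KO 2 was below Control 2. Without Control 3 the difference was 0.13. With 3 clones in each group, 0.1 is the smallest p of an exact permutation test. Summed over the genes outside the matched stretch, the share was 8.87%, 9.64% and 6.24% in control and 10.98%, 10.2% and 10.96% in *Snd1* KO clones, so that these groups did not overlap. This sum, added after the data were seen, also leaves out *mt-Co1* and *mt-Nd4*, which lie partly inside. Control 1 and Control 2 averaged 9.26% in it, against 10.7% in *Snd1* KO clones. The deposited TPM use a gene length that adds up the exons of each annotated transcript, and since each mitochondrial gene has 1 transcript its TPM is high relative to nuclear genes with many. With each exonic base counted once the 37 genes took 8.44%, 9.12% and 5.76% in control and 10.4%, 8.89% and 9.85% in *Snd1* KO clones. Of the recovered reads they took 2.94%, 3.15% and 2.18% in control and 3.72%, 3.13% and 3.37% in *Snd1* KO clones.

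**Figure D3:**
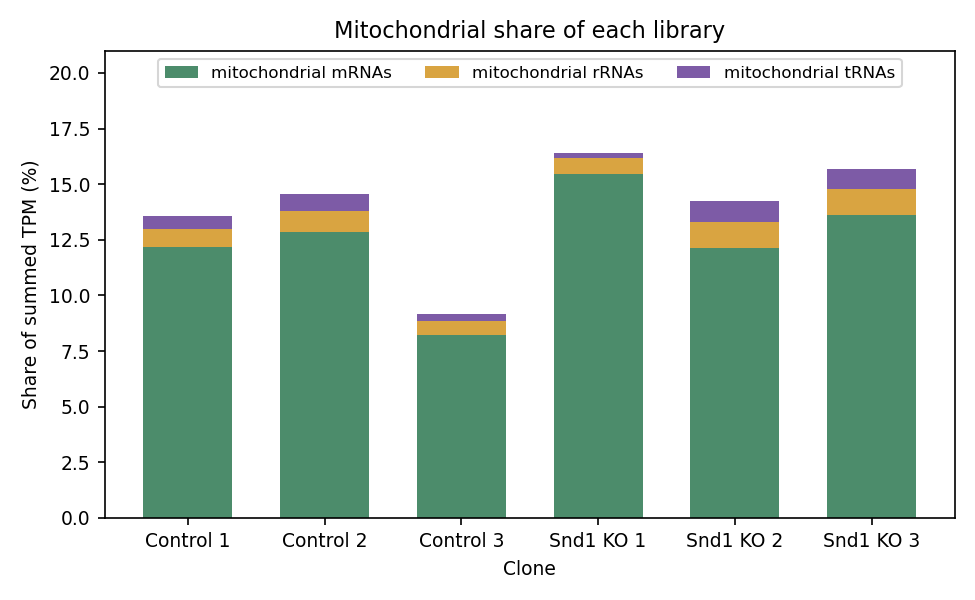
Share of the summed TPM of each library taken by mitochondrial mRNAs, rRNAs and tRNAs, with 1 bar per clone and an axis that starts at 0. mRNAs make up most of each bar, Control 3 has the lowest total (9.17%) and *Snd1* KO 1 the highest (16.4%) with the thinnest tRNA layer (0.214%).

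Within the mitochondrial mRNAs, 2 of 13 shares of the summed mRNA TPM did not overlap between the groups, near the 13.7% of all genes tested whose TPM did not. The 13 include the 6 mRNAs inside the matched stretch, and with reads per base outside the match it was 2 of 7. The shares without overlap were *mt-Co1*, lower in every *Snd1* KO clone, and *mt-Nd5*, higher in every *Snd1* KO clone. *mt-Co1* made up 31.7%, 31.7% and 28.3% of the summed mRNA TPM in control and 28.02%, 25.5% and 27.2% in *Snd1* KO clones, a difference of −3.62 percentage points. The gap between Control 3 and *Snd1* KO 1 was narrow, and both groups spread more widely than it (30.5% ± 1.94 and 26.9% ± 1.26, SD, n = 3, exact permutation p = 0.1, two-sided). *mt-Nd5* made up 10.2%, 10.5% and 10.3% in control and 13.9%, 10.9% and 11.6% in *Snd1* KO clones, a difference of 1.78 percentage points (exact permutation p = 0.1, two-sided), and the control clones lay close to each other. Both p-values are at that lower limit of 0.1 and are not adjusted for the 13 shares compared. Groups of 3 clones without overlap always give this p, so it adds nothing to the lack of overlap by which these shares were picked. With the rRNAs added to the sum, *mt-Co1* overlapped between the groups and *mt-Nd5* did not.

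The ratio of *mt-Nd5* to *mt-Co1*, chosen after these values were seen and given without a test, was 0.323, 0.333 and 0.362 in control and 0.495, 0.427 and 0.427 in *Snd1* KO clones. The other 11 mRNAs had overlapping shares. *mt-Nd1* made up 17.3% to 19.9% and *mt-Nd2* 8.92% to 11.4% over the 6 clones. *mt-Cytb* had its highest share, 24.3%, in Control 3, against 18.7% and 18.9% in the other control clones. With only the bases outside the match used for each gene, *mt-Co1* and *mt-Nd5* again did not overlap, whereas among the 5 mRNAs outside the matched stretch alone 0 shares did so.

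**Figure D4:**
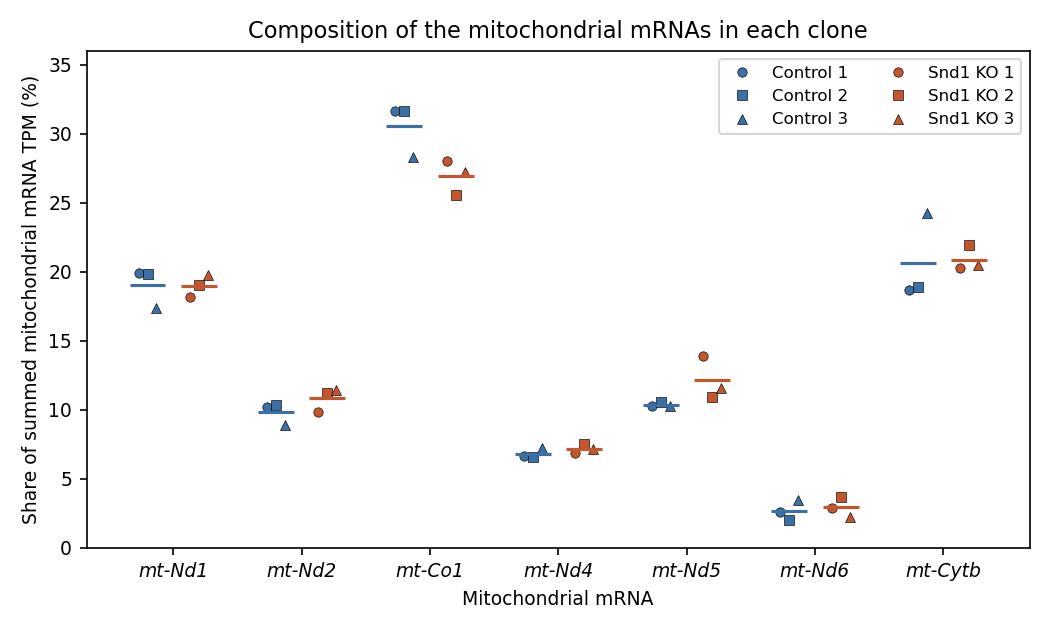
Share of the summed mitochondrial mRNA TPM, in percent, for the 7 mRNAs outside or partly inside the matched stretch, with 1 point per clone and a line at each group mean (n = 3). *mt-Co1* lies at 28.3% to 31.7% in control and 25.5% to 28.02% in *Snd1* KO clones, and *mt-Nd5* at 10.2% to 10.5% and 10.9% to 13.9%.

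The tRNA genes are 59 to 75 bases long, shorter than the reads, and few reads were assigned to them. In all, 2307, 2936 and 1197 reads fell on the 22 tRNA genes in control and 774, 3285 and 3322 in *Snd1* KO clones. *mt-Tl1* (chrM:2676-2750), *mt-Tm* (chrM:3845-3913) and *mt-Tw* (chrM:4950-5016), the tRNAs for leucine, methionine and tryptophan, held 83.9% of the mean tRNA reads. They are printed in the direction of the plus strand, all of them following or preceding an abundant RNA, with *mt-Tv* (chrM:1025-1093), the tRNA for valine between both rRNAs.
mt-Tl1: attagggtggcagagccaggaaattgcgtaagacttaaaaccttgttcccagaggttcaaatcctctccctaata
mt-Tm: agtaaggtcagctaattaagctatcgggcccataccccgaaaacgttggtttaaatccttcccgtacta
mt-Tw: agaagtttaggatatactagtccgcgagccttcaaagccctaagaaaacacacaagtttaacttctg
mt-Tv: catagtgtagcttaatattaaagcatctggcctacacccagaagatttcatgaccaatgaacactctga

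*mt-Tl1*, which lies directly after *mt-Rnr2*, had 779, 1125 and 479 reads in control, against 269, 779 and 1043 reads in *Snd1* KO clones. *mt-Tm* had 607, 652 and 322 reads in control, against 86, 821 and 782 reads in *Snd1* KO clones. *mt-Tw*, which overlaps the end of *mt-Nd2* by 2 bases, had 578, 774 and 211 reads in control, against 273, 1044 and 970 reads in *Snd1* KO clones. In all 3 tRNAs *Snd1* KO 1 stood below the other *Snd1* KO clones, and Control 3 below the other control clones.

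*mt-Tv* had 52, 98 and 28 reads in control, against 2, 29 and 59 reads in *Snd1* KO clones, and *mt-Te*, the tRNA for glutamate, had 33, 17 and 35 reads in control, against 7, 61 and 48 reads in *Snd1* KO clones. The 2 reads of *mt-Tv* in *Snd1* KO 1 are under the floor of 3 reads taken as detection. *mt-Ti*, the tRNA for isoleucine, had 43, 40 and 11 reads in control, against 12, 113 and 88 reads in *Snd1* KO clones. The other tRNAs with a mean of at least 20 reads were *mt-Tq*, *mt-Tt* and *mt-Tp*, for glutamine, threonine and proline. *mt-Tq* had 35 to 60 reads in control and 40 to 139 in *Snd1* KO clones, *mt-Tt* 15 to 36 and 25 to 69, and *mt-Tp* 30 to 77 and 38 to 106. Over these 9 tRNAs the lowest clone was *Snd1* KO 1 in 4, Control 3 in 4 and Control 1 in 1, and the highest was *Snd1* KO 2 in 7.

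The ratio of summed tRNA to summed mRNA TPM was 0.0470, 0.0595 and 0.0415 in control and 0.0138, 0.0783 and 0.0653 in *Snd1* KO clones. *Snd1* KO 1, the clone with the highest mRNA share, thus had the lowest tRNA to mRNA ratio. The group means were 0.0493 ± 0.00924 in control and 0.0525 ± 0.0341 in *Snd1* KO (SD, n = 3 each). The difference of mean log2 ratios had the other sign, −0.24, and was 0.55 without *Snd1* KO 1. Of the 19 tRNAs tested, 0 had groups that did not overlap, against 13.7% of all genes, and 13 had a fold change above 0, against 57.3% of all genes, with adjusted p-values of at least 0.630 (limma). The 13 tRNAs with a mean under 20 reads ranged from 0 to 43 reads per clone. Of these, 5 lie in the matched stretch, where *mt-Tg* had 2 to 43 reads, *mt-Tr* 1 to 25 and *mt-Ts1*, *mt-Td* and *mt-Tk* none. Another 3, *mt-Tf*, *mt-Tn* and *mt-Ts2*, were at or under 3 reads in every clone.

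**Figure D5:**
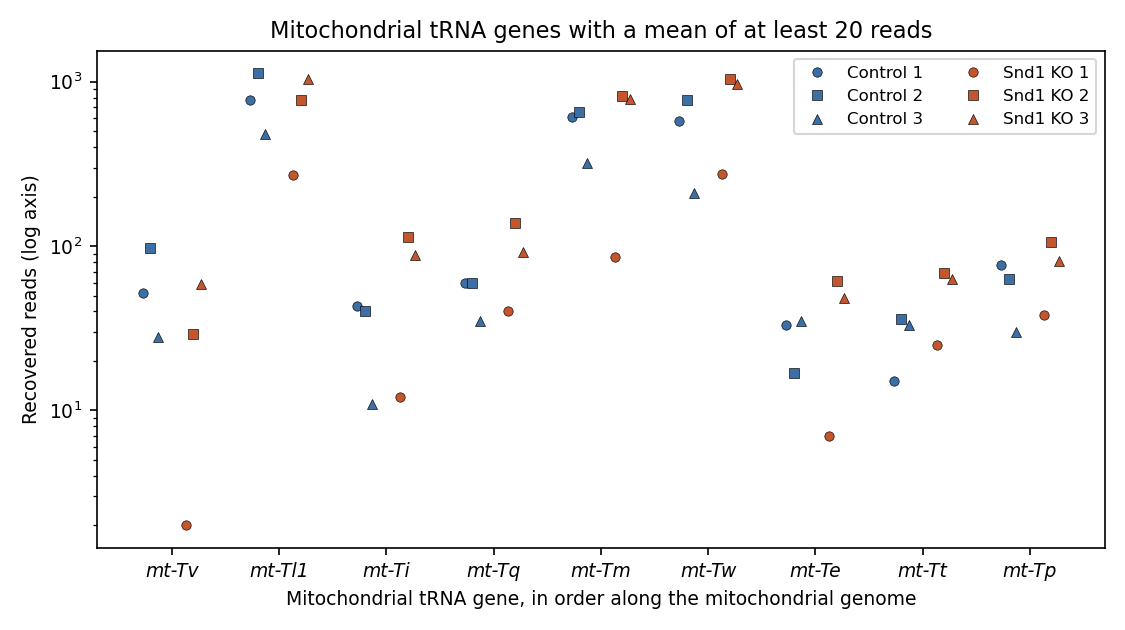
Recovered reads (log axis) on the 9 mitochondrial tRNA genes with a mean of at least 20 reads, in genome order, with 1 point per clone. *Snd1* KO 1 (orange circles) lies below the other *Snd1* KO clones in each, down to 2 reads in *mt-Tv*, and *mt-Tl1*, *mt-Tm* and *mt-Tw* reach 1125, 821 and 1044 reads in their highest clone.

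The nuclear genes that serve the mitochondrial genome were compared in the same fit. Over 11 lists with 183 genes tested, 0 were called (limma), 3 had an unadjusted p under 0.05 against 7.96% of all genes, 10 (5.46%) were higher in every *Snd1* KO clone and 12 (6.56%) lower, against 9.69% and 4.03% of all genes. Of 11 genes for mitochondrial transcription, 2 were higher and 1 lower in every *Snd1* KO clone, with a median log2 fold change of 0.03. *Tfam*, which packages the genome and starts transcription, had 57.9, 53.6 and 49.4 TPM in control and 56.3, 70.8 and 61.8 TPM in *Snd1* KO clones, with overlapping groups (log2 fold change 0.22, adjusted p = 0.654, limma, and 0.14 without *Snd1* KO 2). *Polrmt*, the mitochondrial RNA polymerase, had 4.42, 4.47 and 4.22 TPM in control and 3.59, 4.07 and 3.76 TPM in *Snd1* KO clones, lower in every *Snd1* KO clone (log2 fold change −0.16, adjusted p = 0.797, limma). *Mterf1a* and *Mterf1b*, which encode termination factors and are near-identical copies whose reads may be split, had log2 fold changes of 0.37 and 0.44 and were higher in every *Snd1* KO clone, with 0.26 for *Mterf1b* without Control 3.

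Of 35 genes for mitochondrial RNA processing and decay, 0 were higher and 1 lower in every *Snd1* KO clone, against 9.69% and 4.03% of all genes. The median log2 fold change of these 35 was −0.06. The 1 gene was *Rexo2*, an exonuclease that degrades very short RNAs, with 53.2, 54.9 and 42.05 TPM in control and 38.6, 32.0 and 37.5 TPM in *Snd1* KO clones (log2 fold change −0.46, SE 0.14, unadjusted p = 0.0161, adjusted p = 0.568, limma). *Lrpprc* and *Slirp*, whose products form a complex that stabilises mitochondrial mRNAs, had overlapping groups, with log2 fold changes of 0.12 and −0.18. *Lrpprc* was at 0.08 without Control 1, and *Slirp* at −0.11 without Control 3 and −0.09 without *Snd1* KO 3. Of 17 genes for maintenance of mitochondrial DNA, 2 were higher and 0 lower (median 0.08), namely *Primpol*, a primase and polymerase (0.33), and *Ssbp1*, the single-strand binding protein (0.16, and 0.10 without either Control 2 or *Snd1* KO 1). Of 12 regulators of biogenesis tested, 1 was higher and 0 lower (median 0.16). That gene was *Sirt1*, a deacetylase, with 8.20, 7.40 and 5.50 TPM in control and 8.60, 9.02 and 8.39 TPM in *Snd1* KO clones (log2 fold change 0.28, and 0.14 without Control 3). *Ppargc1a*, a coactivator of mitochondrial biogenesis, was under 1 TPM in every clone.

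The nuclear subunits of the complexes had median fold changes near that of all genes. Over all genes, 9.69% were higher and 4.03% lower in every *Snd1* KO clone. Of 36 complex I subunits 3 were higher and 5 lower (median log2 fold change −0.02), 22.2% without overlap in either direction against 13.7% of all genes. The complex I genes without overlap include *Ndufc2* (−0.32), *Ndufb3* (0.22) and *Ndufs4* (0.22). Of 9 complex III subunits 1 was lower, *Uqcrq* (−0.30), and the median was 0.04. Of 13 complex IV subunits tested 1 was higher, *Cox6c* (0.34, and 0.21 without *Snd1* KO 2), and the median was 0.01. Of 17 complex V subunits 0 were higher or lower in every clone, and the median was 0.05.

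The TPM of the mitochondrial subunits was set against the summed nuclear subunits of the same complex, for the mRNAs outside or partly outside the match. For complex I, the 5 mRNAs had 9.15, 10.003 and 5.23 times the summed nuclear TPM in control and 12.4, 8.94 and 11.3 times in *Snd1* KO clones. For complex III, *mt-Cytb* had 11.1, 12 and 7.80 times in control and 13.8, 11.3 and 13.2 times in *Snd1* KO clones. For complex IV, *mt-Co1* had 7.73, 8.24 and 3.77 times in control and 8.03, 5.40 and 7.44 times in *Snd1* KO clones. Control 3 had the lowest ratio in each complex, and the groups overlapped in each. The ratios compare clones and are no count of molecules, since the length used for nuclear genes sums over their transcripts.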

How the data were processed

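RNA of 6 MIN6 clones was sequenced in paired ends. The authors handled the reads with the Genialis platform, and the values they deposited are TPM per gene. The submitters' processing notes name FastQC, Trimmomatic, HISAT2, HTSeq and DESeq2, without versions or roles, and the build mm10, which is GRCm38. The kit for cDNA is named, but its priming and the handling of strand and of reads with several matching places are not given in the sources used here. Samples were grouped by their labels.

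GENCODE M21 matched 53706 of 53801 identifiers and 95 were unmatched. The 99 spike-in rows, at most 1.02 TPM, were left out. Whole reads were recovered from TPM and gene length (99.97% of values within 0.01 of a whole number), which gives 25803774 to 32991397 reads per clone. These cover counting error only, and 3 reads was taken as the floor. log2(TPM + 1) of genes averaging 0.5 TPM or more was compared by limma 3.58.1 in R 4.3.3 (mean-variance trend, Benjamini-Hochberg over all genes), and called at an adjusted p under 0.05 and 2-fold. Fold changes on this scale understate those of low genes. The comparison was tested on simulated data. Single shares were compared by two-sided exact permutation over clones (scipy 1.17.1), and no p is given for sums over the members. Nuclear copies were found by aligning annotated transcripts with blastn 2.17.0, at 100 bases or more and 95% identity. Python 3.11.15, numpy 2.4.6, pandas 2.3.3 and matplotlib 3.10.9 were also used.

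The members, gene lists, named genes and tests were chosen with earlier results of these data known. Named were every mRNA and rRNA, tRNAs with a mean of at least 20 reads, nuclear genes called or, up to 4 per list, without overlap, and *Tfam*, *Polrmt*, *Lrpprc*, *Slirp* and *Ppargc1a*. Alternatives changed the pseudocount, filter, scaling, trend, clone weights, replicate block, threshold and clones included, and those on the chromosome 1 match and on the ratios of tRNA to mRNA, *mt-Rnr1* to *mt-Rnr2* and *mt-Nd5* to *mt-Co1* were added after seeing the data. Other data of the study were not used here. A gene that the rule for named genes selects is not reported here.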

Additional observations from a re-analysis of the deposited data

How the results depend on the processing

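The number of mitochondrial genes called was 0 under each of the 19 alternatives, and that of nuclear genes in the lists was 0 under all but clone quality weights, where it was 1. That gene was *Slc25a33*, a mitochondrial nucleotide carrier, with a weighted log2 fold change of −1.17 (adjusted p = 0.0339) against −0.46 (adjusted p = 0.792) in the unweighted limma fit. It had 13.1, 15.5 and 4.28 TPM in control and 9.14, 6.61 and 5.07 TPM in *Snd1* KO clones, so the groups overlapped. Control 3, its lowest clone, had a weight of 0.28, while *Snd1* KO 3 had 3.91. Over all genes these weights called 895 against 1, and they brought *mt-Rnr1* (adjusted p = 0.0258) and *mt-Co2* (adjusted p = 0.0491) under 0.05 without reaching 2-fold, and likewise *Rexo2* (adjusted p = 0.0231), *Sdhd* (adjusted p = 0.0344) and *Cox6c* (adjusted p = 0.0466). Over all alternatives, adjusted p ranged from 0.0258 to 0.983 for *mt-Rnr1* and from 0.0491 to 0.983 for *mt-Co2*. The unweighted limma fit called 1 of all 17823 genes and voom 0, so counts of 0 under such alternatives say little on stability.

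With weights the log2 fold changes of *mt-Co1*, *mt-Atp6* and *mt-Co3* were −0.081, −0.019 and −0.092. Leaving out 1 clone gave −0.11 to 0.29 for *mt-Co1*, −0.023 to 0.13 for *mt-Co3* and −0.029 to 0.46 for *mt-Rnr2*. For the 13 mRNAs, 2 rRNAs and 22 nuclear genes that the rule for named genes selects, and the ratios of *mt-Rnr1* to *mt-Rnr2* and *mt-Nd5* to *mt-Co1*, the 6 negative values just given were the changes of direction among 637 alternatives. Of these alternatives the filters, the fit without trend and the block leave a fold change as it is, so their direction says nothing on stability. The median over mRNAs and rRNAs ranged from 0.25 to 0.47 when 1 clone was left out, and the log2 difference of the share from 0.13 (without Control 3) to 0.47 (without Control 2).

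The log2 difference of the rRNA to mRNA ratio was 0.04, turned to −0.0032 in recovered reads and to −0.10 for *mt-Rnr2* alone, and ranged from −0.17 to 0.36 without 1 clone. That of the tRNA to mRNA ratio ranged from −0.70 to 0.55. The number of mRNA shares that did not overlap was 2, but 1 (*mt-Nd5*) with rRNAs in the sum, 0 of 3 without mRNAs that overlap another gene model, 0 of 5 outside the matched stretch, and 2 to 6 without 1 clone, with 6 reached without Control 3. The cause of these changes was not tested.

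Clone numbers did not pair the samples. Deviations of clones of the same number correlated at 0.12, −0.20 and −0.11, and with the replicate block 0 mitochondrial and 0 nuclear list genes were called, while the fold changes and the share (median over mRNAs and rRNAs 0.41, log2 difference of the share 0.34) cannot change with a block in this balanced design. With 3 clones a group, differences within the spread between clones were not detectable, and tRNAs at or under 3 reads were not measured.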

Other observations

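The remaining lists of nuclear genes held 0 called genes (limma). Of 18 genes of the mitochondrial stress response tested, 0 were higher and 2 lower in every *Snd1* KO clone, against 9.69% and 4.03% of all genes. The median log2 fold change was −0.24, against 0.04 over all genes. *Atf4*, a transcription factor of the integrated stress response, had 348, 361 and 404 TPM in control and 192, 315 and 347 TPM in *Snd1* KO clones (log2 fold change −0.42, SE 0.23, adjusted p = 0.646, limma). *Mthfd2*, a mitochondrial enzyme of folate metabolism, had 152, 153 and 140 TPM in control and 67.1, 113 and 139 TPM in *Snd1* KO clones (log2 fold change −0.54, SE 0.26, adjusted p = 0.607, limma). *Snd1* KO 1 was the lowest clone for both, and *Snd1* KO 3 lay just under the controls. Without *Snd1* KO 1 the values were smaller, −0.16 for *Atf4* and −0.25 for *Mthfd2*.

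Of 4 subunits of complex II, which has no mitochondrial gene, 50% were without overlap in either direction, against 13.7% of all genes. *Sdhd* was higher in every *Snd1* KO clone, with 460, 443 and 490 TPM in control and 541, 590 and 556 TPM in *Snd1* KO clones (log2 fold change 0.28, SE 0.11, adjusted p = 0.607, limma), and *Sdhc* was lower (−0.11). Of 11 genes of mitophagy tested, 0 were higher and 1 lower in every *Snd1* KO clone, against 9.69% and 4.03% of all genes. The lower gene was *Sqstm1*, an autophagy receptor, with 283, 290 and 267 TPM in control and 243, 243 and 262 TPM in *Snd1* KO clones (log2 fold change −0.17, adjusted p = 0.670, limma).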
